A study of Mus musculus with 8 samples.

Results

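The phagocyte NADPH oxidase subunits Cybb, Cyba, Ncf1, Ncf4, Rac1 and Rac2 were followed in mouse peritoneal macrophages that carry or lack the proprotein convertase FURIN. A gene probe was taken for a subunit when its RefSeq transcript identifier mapped to that gene, and the brightest probe over all arrays stood for the gene. All 6 subunits were found, among 20886 named genes and 37018 genes and transcripts measured in all. Cyba and Rac1 have 2 probes each, and the Rac2 probe is printed at 10 spots of the array. RNA was compared on 8 Agilent 2-colour arrays, each of which held KO RNA in one dye and WT RNA of that time point in the other. All mice had the C57BL/6 strain background. KO cells came from LysMCre-fur(fl/fl) mice, in which Cre is driven from the LysM (Lyz2) locus and so acts in macrophages and granulocytes, and WT cells came from littermates. The age of the animals and whether animals were pooled are not given in the sources used here. Adherent peritoneal cells were left unstimulated (0 h) or received LPS, a Toll-like receptor 4 ligand of bacterial cell walls, at 1 μg/ml for 1, 4 or 24 h. Each of the 4 time points has 2 biological replicates, and the KO dye was Cy5 in replicate 1 but Cy3 in replicate 2. What the replicates share, such as a mouse or a culture, is not stated, and 2 arrays per time point limit the precision of every value below.

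In resting phagocytes the oxidase is disassembled. Its membrane part, flavocytochrome b558, consists of the catalytic gp91phox chain (NOX2, from Cybb) and p22phox (from Cyba), which stabilises it. On activation cytosolic subunits, among them the organiser p47phox (Ncf1) and p40phox (Ncf4), which binds phosphoinositides on phagosomes, join it together with a RAC GTPase, and the complex passes electrons from NADPH to oxygen to form superoxide used against microbes. Loss of any of several subunits causes chronic granulomatous disease.

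Promoter sequences are shown for the subunits whose upstream region was found in the RefSeq table, because Ncf1 and Cyba were the subunits with the largest changes after LPS, and Cybb is the catalytic chain. Of the 6 subunits, 3 had an entry, namely Cybb, Cyba and Ncf1. The 250 bases before the start that the table gives are printed 5′ to 3′ along the gene, from RefSeq on GRCm38.p6. The Cybb window lies inside the interval that RefSeq gives for the whole gene, so it does not precede the outermost start. Capitals mark matches to the interferon-stimulated response element (GAAA, any 2 bases, GAAA) on either strand.
Cybb, chrX:9469325-9469574, minus strand: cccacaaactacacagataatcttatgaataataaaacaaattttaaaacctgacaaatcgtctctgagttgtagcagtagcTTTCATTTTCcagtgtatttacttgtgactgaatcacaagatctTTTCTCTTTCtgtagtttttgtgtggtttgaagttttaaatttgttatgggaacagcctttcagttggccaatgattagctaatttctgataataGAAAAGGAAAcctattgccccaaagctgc
Ncf1, chr5:134229626-134229875, minus strand: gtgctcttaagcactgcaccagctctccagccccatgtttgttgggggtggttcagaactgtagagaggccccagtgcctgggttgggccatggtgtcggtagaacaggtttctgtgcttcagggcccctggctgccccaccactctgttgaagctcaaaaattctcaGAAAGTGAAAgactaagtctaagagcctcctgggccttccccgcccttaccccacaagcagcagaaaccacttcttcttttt
Cyba, chr8:122432941-122433190, minus strand: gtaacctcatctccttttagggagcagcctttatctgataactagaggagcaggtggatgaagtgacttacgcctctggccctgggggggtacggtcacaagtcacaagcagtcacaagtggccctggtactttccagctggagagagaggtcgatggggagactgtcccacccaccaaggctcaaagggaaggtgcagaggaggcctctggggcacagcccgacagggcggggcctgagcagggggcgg
The interferon-stimulated response element was found in the Cybb and Ncf1 windows and in 3.44% of the 32851 promoters of the table, counted over 300 bases that reach 50 bases past the start. Cybb holds 3 matches, whose first bases lie at -168, -124 and -29 relative to the start. Ncf1 holds a single match, at -82. GAGGAA, the core bound by PU.1, lies on the minus strand of the gene 10 bases past the start of Cybb and is found in 28.3% of promoters. GGAANNTCC, resembling an NF-kB site, was found in none of the 3 and in 4.26% of all promoters. These matches are letters in a window and were not tested as binding sites.

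All 6 subunits were well above background in each of the 16 channels, a channel being the RNA of one genotype on one array, and no subunit spot was saturated or marked as an outlier. Between 43.8% and 51.3% of gene spots were well above background per channel. As a check of the genotype, the mean log2 KO/WT ratio of Furin over the time points was -0.44 (adjusted p = 0.022). By time it was -0.72 in unstimulated cells, -0.56 after 1 h and -0.64 after 24 h, with adjusted p from 0.163 to 0.458 (0.0123 to 0.0477 with the replicate number as a block). At 4 h it was 0.0012 on one array and 0.33 on the other, so the channels labelled KO were not lower there, and where the probe lies relative to the deleted part of Furin is not given. Lyz2 was lower in KO on all 8 arrays, by 1.16 on average (adjusted p = 0.000341). Its ratio at 0 and 1 h passed only with the block (adjusted p = 0.00252 and 0.00648, against 0.0888 and 0.197), as did the change of its ratio from 0 to 24 h (0.0338, against 0.421). All 6 measured macrophage markers of 7 were well above background in each channel. Of 10 measured neutrophil markers, 5 (S100a8, Elane, Camp, Csf3r and Mmp8) were well above background in all 16 channels, and Ltf was in 1. The others, S100a9, Ngp, Cxcr2 and Retnlg, were not above it in any channel. All 6 B cell markers were above it in every one. In such bulk RNA, fewer cells of a type and less RNA per cell cannot be told apart.

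Over the 8 combinations of genotype and time, the mean level of the Ncf1 probe spanned 1.73 on the log2 scale (3.33-fold), Cyba 1.37, Rac2 0.92, Ncf4 0.84, Cybb 0.64 and Rac1 0.50. Cyba and Ncf4 were highest in unstimulated WT cells, Cyba was lowest in KO cells after 24 h of LPS, and the lowest Ncf4 mean was the same in KO cells at 4 and 24 h (14.75). The order ran the other way for Rac2 and the brighter Rac1 probe, with the lowest mean in WT cells at 1 h and the highest in KO cells at 24 h, but not for the dimmer Rac1 probe, which fell. Many neighbours in these orders were not separated. When the 8 groups of a probe were ordered by mean, the replicates of adjacent groups overlapped in 7 of 7 pairs for Rac1, 5 for Cybb, 4 for Ncf4 and Rac2, and 3 for Cyba and Ncf1. All values are normalized log2 intensities of a single probe, given for replicate 1 first, and levels of different probes are not compared.

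**Figure D1:**
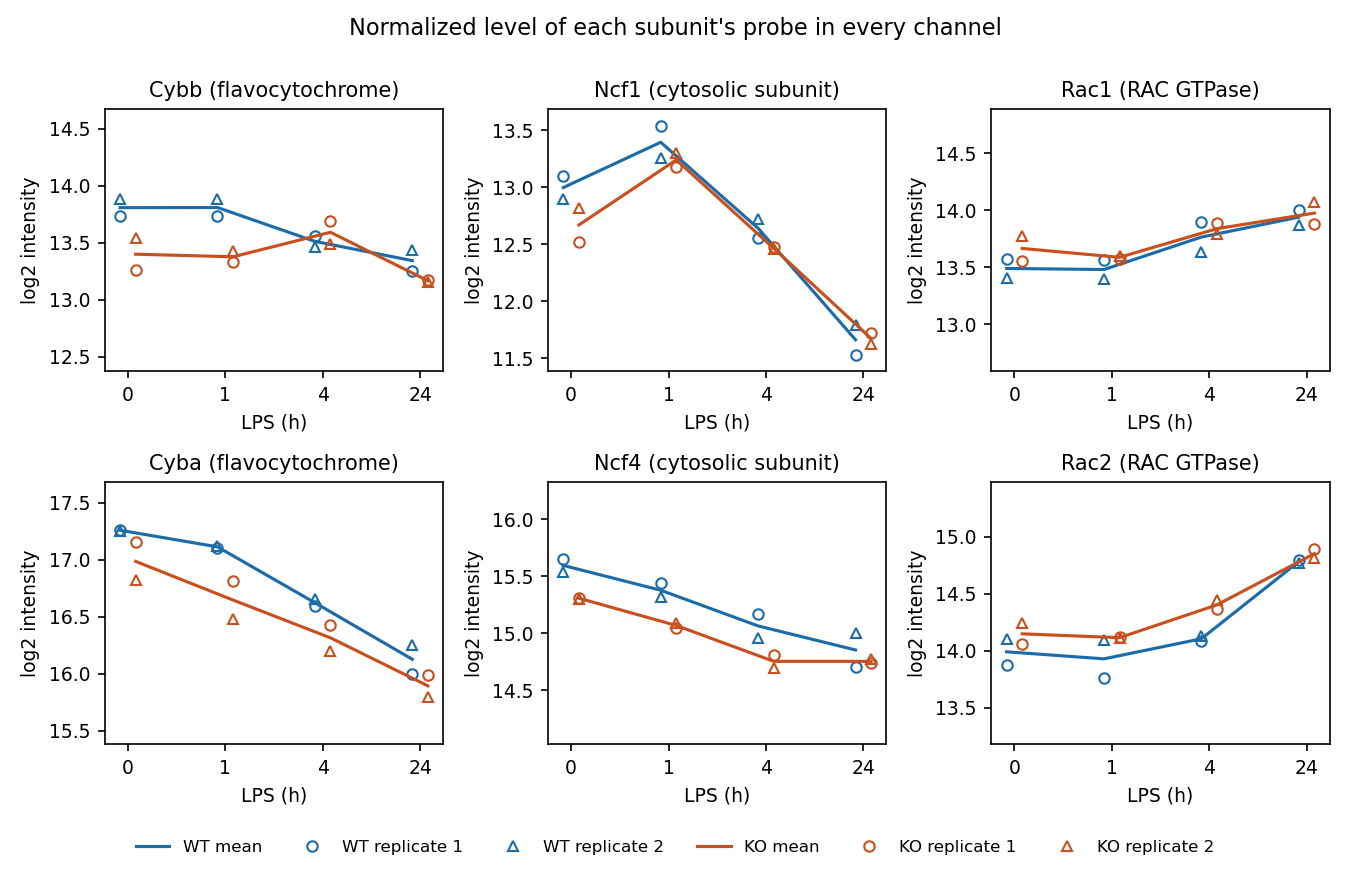
Normalized log2 intensity of the probe of each subunit (y axis, each panel spanning the same range) at 0, 1, 4 and 24 h of LPS (x axis, evenly spaced, not to scale), with circles and triangles for replicates 1 and 2 and lines through the means of 2 channels, WT in blue and KO in orange. Cyba, Ncf1 and Ncf4 end below their starting level and Rac2 ends above it in both genotypes, and Ncf1 peaks at 1 h.

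Cybb encodes gp91phox, the electron-transferring chain of the oxidase. In WT cells its probe read 13.73 and 13.88 at 0 h, 13.73 and 13.88 at 1 h, 13.56 and 13.47 at 4 h, then 13.25 and 13.43 at 24 h. The KO channels read 13.26 and 13.54 at 0 h, 13.33 and 13.43 at 1 h, 13.69 and 13.49 at 4 h, then 13.18 and 13.16 at 24 h. The WT and KO channels did not overlap at 0, 1 and 24 h, with KO lower, and overlapped at 4 h. Cybb fell by 0.47 on the log2 scale after 24 h in WT cells (SE 0.12, 1.38-fold lower, adjusted p = 0.00734). This call was lost without replicate 2 of the unstimulated arrays (adjusted p = 0.0581) and without the first replicate at 24 h (adjusted p = 0.1). With loess normalization alone, without quantile normalization between arrays, the change was -0.07 (adjusted p = 0.848). In KO cells the 24 h change was -0.23 (adjusted p = 0.181), and at 4 h the changes were -0.30 in WT (adjusted p = 0.0703) and 0.19 in KO (adjusted p = 0.255). From 4 to 24 h Cybb fell by 0.43 in KO cells (adjusted p = 0.0127). This call was lost without the first replicate at 4 h (-0.33, adjusted p = 0.134) or either replicate at 24 h (adjusted p = 0.0543 and 0.0671), and with loess alone the change was -0.12 (adjusted p = 0.715).

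Cyba encodes p22phox, without which gp91phox is unstable. Its brighter probe read 17.26 and 17.25 in WT cells at 0 h, 17.10 and 17.12 at 1 h, 16.59 and 16.65 at 4 h, then 15.999 and 16.25 at 24 h. The KO values were 17.15 and 16.82 at 0 h, 16.82 and 16.48 at 1 h, 16.43 and 16.20 at 4 h, then 15.99 and 15.79 at 24 h. Within each genotype every 4 h and 24 h channel was below both unstimulated channels. Cyba fell by 0.64 after 4 h (SE 0.15, 1.55-fold lower, adjusted p = 0.00333) and by 1.13 after 24 h (2.19-fold lower, adjusted p = 3.61e-05) in WT cells. In KO cells it fell by 0.67 (adjusted p = 0.00221) and by 1.09 (2.13-fold lower, adjusted p = 5.37e-05). At 1 h its KO change was -0.34 (adjusted p = 0.237, and 0.0294 with the replicate block). Between LPS times, Cyba fell by 0.49 from 1 to 4 h (adjusted p = 0.0209) and by 0.50 from 4 to 24 h in WT (adjusted p = 0.0196), and by 0.42 from 4 to 24 h in KO (adjusted p = 0.0441). From 1 to 4 h in KO its change was -0.33 (adjusted p = 0.113, and 0.0113 with the block). Leaving out any array of 1 or 4 h ended the call of the WT step from 1 to 4 h, with adjusted p up to 0.0964, and the calls of the later steps were lost without 1 array of 4 or 24 h, with adjusted p up to 0.172 in WT and 0.291 in KO. With loess alone the step from 4 to 24 h was -0.22 in WT (adjusted p = 0.629) and -0.19 in KO (adjusted p = 0.696), and the calls from 1 to 4 h in WT (adjusted p = 0.113) and at 4 h in KO (adjusted p = 0.0535) were lost. Aquantile normalization also ended the calls of these steps, with adjusted p of 0.0964 from 1 to 4 h in WT and of 0.117 in WT and 0.147 in KO from 4 to 24 h. The scanner software's processed signals ended that from 1 to 4 h in WT (adjusted p = 0.098) and that from 4 to 24 h in KO (adjusted p = 0.114).

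Ncf1 encodes p47phox, the organiser that carries the cytosolic subunits to the membrane once phosphorylated. In WT cells it read 13.10 and 12.90 at 0 h, 13.54 and 13.25 at 1 h, 12.55 and 12.73 at 4 h, then 11.53 and 11.79 at 24 h. KO cells had 12.52 and 12.82 at 0 h, 13.18 and 13.31 at 1 h, 12.47 and 12.46 at 4 h, then 11.72 and 11.62 at 24 h. In both genotypes the 1 h channels lay above and the 24 h channels below all channels of the other times. The rise at 1 h passed the test in KO cells (0.57, SE 0.14, 1.49-fold, adjusted p = 0.0254), while in WT cells it was 0.40 (adjusted p = 0.125). Without replicate 1 of the unstimulated arrays the KO value was 0.42 (adjusted p = 0.26), and without replicate 1 or 2 of the 1 h arrays its adjusted p was 0.062 and 0.161, and with loess alone it was 0.156. The change in the genotypes' difference from 0 to 1 h was 0.17 (95% confidence interval -0.32 to 0.67, adjusted p = 1). After 24 h Ncf1 fell by 1.34 in WT (SE 0.14, 2.53-fold lower, adjusted p = 5.63e-06) and by 1.00 in KO (2.00-fold lower, adjusted p = 8.95e-05). It fell in both genotypes from 1 to 4 h, by 0.76 in WT and 0.78 in KO (adjusted p = 0.000866 and 0.000666), and again from 4 to 24 h, by 0.98 and 0.79 (adjusted p = 0.000104 and 0.000589). With loess alone the later step was -0.64 in WT (adjusted p = 0.0143) and -0.44 in KO, where the call was lost (adjusted p = 0.0956).

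Ncf4 encodes p40phox. In WT cells it read 15.65 and 15.54 at 0 h, 15.44 and 15.32 at 1 h, 15.17 and 14.95 at 4 h, then 14.70 and 15.01 at 24 h. For KO the values were 15.31 and 15.30 at 0 h, 15.05 and 15.09 at 1 h, 14.81 and 14.69 at 4 h, then 14.73 and 14.77 at 24 h. The KO channels were below both WT channels at 0, 1 and 4 h and lay between them at 24 h. Ncf4 fell by 0.53 after 4 h (SE 0.11, 1.45-fold lower, adjusted p = 0.0019) and by 0.74 after 24 h (1.67-fold lower, adjusted p = 0.00016) in WT cells. In KO cells it fell by 0.55 at both times (adjusted p = 0.00134 at 4 h and 0.0018 at 24 h). With loess alone the 24 h changes were -0.31 in WT (adjusted p = 0.111) and -0.11 in KO (adjusted p = 0.685). From 1 to 4 h its changes were -0.31 in both WT (adjusted p = 0.0547) and KO (adjusted p = 0.0506, and 0.0494 with the block).

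Rac2, the RAC GTPase of blood cells, differs from Rac1 in that its expression is largely restricted to the haematopoietic lineage. Its probe read 13.88 and 14.10 in WT cells at 0 h, 13.77 and 14.09 at 1 h, 14.08 and 14.13 at 4 h, then 14.79 and 14.77 at 24 h. KO channels stood at 14.06 and 14.24 at 0 h, 14.12 and 14.11 at 1 h, 14.36 and 14.44 at 4 h, then 14.89 and 14.81 at 24 h. The 24 h channels of each genotype lay above all its earlier channels. Rac2 rose by 0.79 after 24 h in WT (SE 0.12, 1.73-fold, adjusted p = 0.000113) and by 0.70 in KO (1.63-fold, adjusted p = 0.000329). From 0 to 4 h Rac2 changed by 0.11 in WT (adjusted p = 0.544) and 0.25 in KO (adjusted p = 0.117), where both 4 h channels lay above all those of 0 and 1 h, and it rose by 0.68 from 4 to 24 h in WT (adjusted p = 0.000443) and 0.45 in KO (adjusted p = 0.00865). With the block, its change of 0.29 from 1 to 4 h in KO passed as well (adjusted p = 0.0471, and 0.0816 without it). The step from 4 to 24 h in KO was lost without the first replicate at 4 h (adjusted p = 0.0704) or at 24 h (adjusted p = 0.0786). With loess alone the rise was larger, by 1.13 at 24 h and 0.79 from 4 to 24 h in KO. In WT the largest values over the alternative settings were 1.19 at 24 h and 1.03 from 4 to 24 h.

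Rac1 is the widely expressed RAC GTPase. Its brighter probe read 13.58 and 13.40 in WT cells at 0 h, 13.56 and 13.40 at 1 h, 13.90 and 13.63 at 4 h, then 14.005 and 13.87 at 24 h. In KO cells it read 13.55 and 13.77 at 0 h, 13.57 and 13.60 at 1 h, 13.89 and 13.79 at 4 h, then 13.88 and 14.07 at 24 h. The 24 h channels were above the unstimulated ones in both genotypes. This probe rose by 0.45 after 24 h in WT (SE 0.13, 1.37-fold, adjusted p = 0.0138), a call that was lost without replicate 2 of the unstimulated arrays (adjusted p = 0.11) or replicate 1 of the 24 h arrays (adjusted p = 0.103). In KO its change was 0.31 (adjusted p = 0.0886, and 0.0234 with the replicate block). With loess alone the values were 0.82 and 0.70, both past the threshold. In WT the block also brought its change at 4 h (0.28) and from 1 to 4 h (0.29) past the threshold, with adjusted p of 0.0372 and 0.0357 in place of 0.119. The dimmer probe of Rac1 moved the other way. It fell by 0.82 at 4 h and 0.73 at 24 h in WT (adjusted p = 2.1e-05 and 8.91e-05), and by 0.81 and 0.86 in KO (adjusted p = 2.41e-05 and 1.96e-05). No direction is therefore given for Rac1 as a gene. The files place neither probe on the transcript. The dimmer probe of Cyba fell like the brighter one and further, by 1.52 in WT and 1.48 in KO at 24 h.

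**Figure D2:**
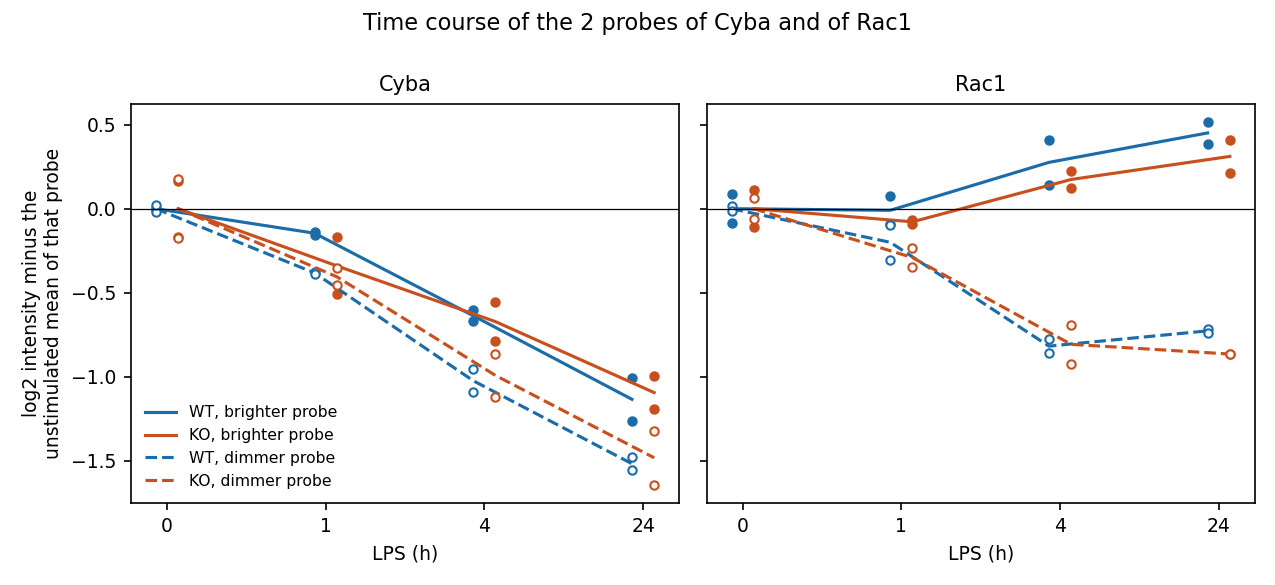
Log2 intensity of the brighter (filled points, solid lines) and the dimmer probe (open points, dashed lines) of Cyba and Rac1 at 0, 1, 4 and 24 h of LPS, each minus the mean of the unstimulated channels of that probe and genotype, with lines through the means of 2 channels. Both Cyba probes fall, whereas the Rac1 probes part, to 0.45 and -0.73 in WT at 24 h.

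Counted together, 2 of 6 subunits fell and none rose in WT cells at 4 h, where 34.7% of all genes and transcripts tested passed the threshold (15.4% higher, 19.2% lower). At 24 h all 6 passed in WT (4 with loess alone), 4 lower and 2 higher, against a background of 30.4% of all features (13.4% higher, 16.9% lower). The 2 higher ones were Rac2 and the brighter probe of Rac1. In KO cells the counts were 2 lower at 4 h (background 35.9%, with 16.2% higher and 19.7% lower) and 3 lower and 1 higher at 24 h (background 28.6%, with 12.7% higher and 15.9% lower). At 1 h none passed in WT, where 8.47% of features did, and 1 in KO, where 7.43% did. By an unadjusted p under 0.05, 1 subunit passed in WT and 2 in KO at 1 h, where 18.2% and 17.9% of features did, 5 in WT and 3 in KO at 4 h (40.7% and 41.7%), and 5 in WT and 4 in KO from 1 to 4 h (36.4% and 38.4%). By the methods' t-test, a gene-by-gene test, none of the 6 passed after adjustment in any of these comparisons. Of all features, 0, 1847 and 17 passed that test in WT at 1, 4 and 24 h, and 3, 779 and 630 in KO. From 1 to 4 h 11 features passed it in WT and 380 in KO. The median change of the 6 at 24 h was -0.60 in WT and -0.39 in KO, and the median over all features was -0.02 in each. Between consecutive LPS times, 2 of 6 passed from 1 to 4 h in WT (background 29.6%) and 1 in KO (31.7%), and 3 from 4 to 24 h in WT (29.7%) and 4 in KO (30.7%). With the replicate block the counts were 3 in WT at 4 h (background 39%), 3 in WT from 1 to 4 h (33.9%), 2 in KO at 1 h (11.4%), 5 in KO at 24 h (33.1%) and 4 in KO from 1 to 4 h (36.2%). By the adjusted p without the block, with the brighter probes and both directions counted together, the shares of subunits at 4 h and between 1 and 4 h are close to or below the background.

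**Figure D3:**
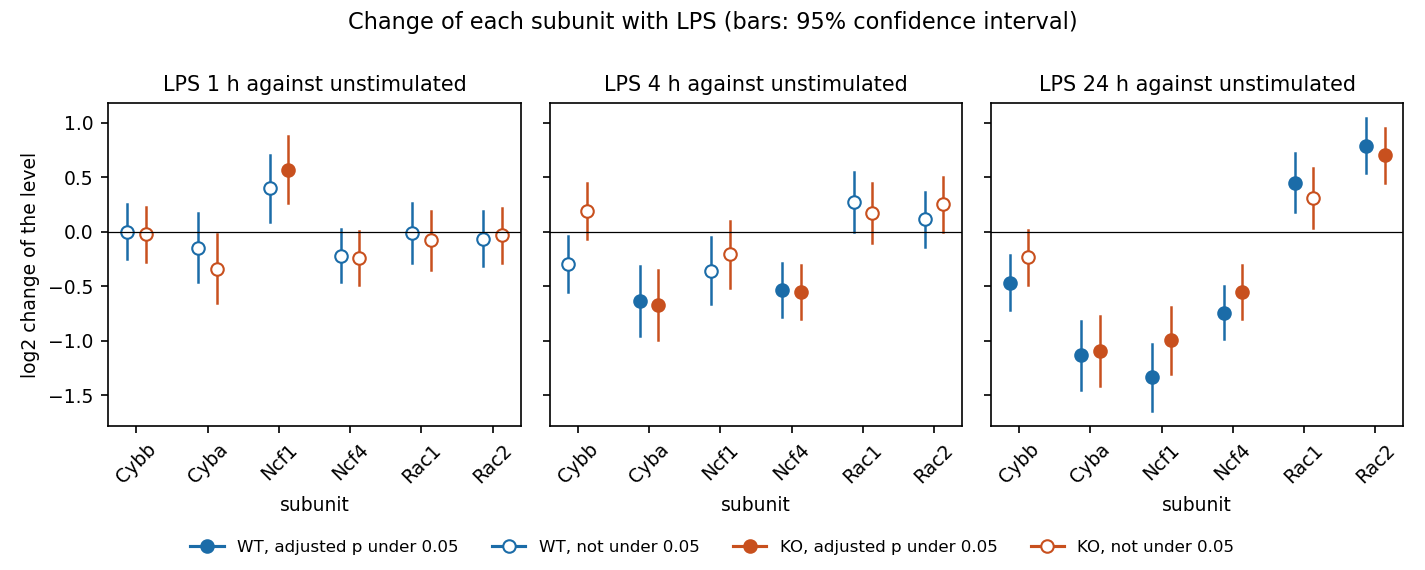
Log2 change of the level of each subunit (x axis) at 1, 4 and 24 h of LPS against unstimulated cells of the same genotype, WT in blue and KO in orange. Bars are 95% confidence intervals from the fit over 16 channels and filled points have an adjusted p under 0.05. At 24 h Cyba, Ncf1 and Ncf4 are below 0 and Rac2 above 0 in both genotypes, with the brighter probe shown for Rac1, whose dimmer probe fell.

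Cell type markers moved over the same hours. The summed level of the 6 macrophage markers went from 18.31 at 0 h to 17.42 at 24 h on the log2 scale, with 2 of them higher and 3 lower in WT and 1 higher and 3 lower in KO. That of the 4 markers of large peritoneal macrophages went from 15.94 to 13.07. All 4 of the latter (Gata6, Timd4, Icam2, Vsig4) fell at 24 h in both genotypes, with a median change of -3.94 in WT and -3.83 in KO. Summed neutrophil markers went from 15.51 to 16.08, with S100a9, Ngp, Cxcr2 and Retnlg at background, while 2 of the 10 were higher and 3 lower in each genotype, with a median change of 0.06 in WT and -0.10 in KO. Summed B cell markers went from 16.30 to 15.37, with 1 of 6 lower in each genotype. Summed mast cell markers went from 13.40 to 11.57, with 5 of 6 lower at 24 h in both genotypes. Summed dendritic cell markers went from 12.21 to 9.32, with 1 of 3 higher and 1 lower in each genotype, and those of mesothelial cells and fibroblasts from 10.03 to 11.33, with 1 of 8 higher in WT, 2 in KO and none lower. Those of T and NK cells went from 14.06 to 13.42, with 3 of 7 lower in WT, 4 in KO and none higher. These sums weigh the brightest genes most. Their part in the changes of the subunits was not tested.

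No subunit passed the threshold between KO and WT at any single time or in the mean over the 4 time points. By time, 0%, 0%, 0.0135% and 0.0244% of all features passed at 0, 1, 4 and 24 h, and 0.566% passed in the mean. By an unadjusted p under 0.05 the number of subunits was 2, 3, 2 and 0 at these times and 4 in the mean, where 2135, 2025, 1589, 1266 and 3940 of 36947 features did. With the replicate number as a block, which is also the dye orientation, 4 of 6 passed in the mean, where 5.99% of all features did, and 1 passed at 1 h, where 0.574% did. Among all genes the median of the mean ratio was 0.00, and among the 6 subunits it was -0.20.

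In the mean over the time points, the ratios of the 4 phox subunits were below 0 and those of the 2 RAC GTPases above 0, with the brighter probe taken for Rac1. Cyba was lower in KO on 8 of 8 arrays, with log2 ratios from -0.65 to -0.01 and a mean of -0.32 (SE 0.07, 1.25-fold lower). Its adjusted p was 0.119 without and 0.00159 with the replicate block. Its ratio was lower for replicate 2 than for replicate 1 at each time, by 0.29 to 0.45. At 1 h its mean ratio was -0.47 (adjusted p = 0.74, and 0.0399 with the block). The dimmer Cyba probe gave -0.26 in the mean.

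Ncf4 was lower in KO on 7 of 8 arrays, from -0.39 to 0.03, with a mean of -0.25 (SE 0.05, adjusted p = 0.0778, and 0.0119 with the block). Cybb had a mean of -0.23 (SE 0.05, adjusted p = 0.0779, and 0.0116 with the block) and was below 0 on 6 of 8 arrays. Ncf1 ranged from -0.58 to 0.19 over the arrays, with a mean of -0.16 (adjusted p = 0.529, and 0.249 with the block). Rac2 was higher in KO on 8 of 8 arrays, from 0.02 to 0.36, with a mean of 0.18 (SE 0.05, 1.13-fold, adjusted p = 0.204, and 0.046 with the block). The brighter Rac1 probe had a mean of 0.10 and was above 0 on 5 of 8 arrays (adjusted p = 0.704). Its ratio was -0.02, 0.01, -0.01 and -0.13 in replicate 1 and 0.37, 0.20, 0.16 and 0.20 in replicate 2 at 0, 1, 4 and 24 h. The dimmer Rac1 probe gave 0.02 in the mean (adjusted p = 0.965 by limma). The Rac2 ratio of replicate 1 minus that of replicate 2 was 0.04, 0.34, -0.03 and 0.05 at 0, 1, 4 and 24 h, and the 10 Rac2 spots of an array had an SD of 0.03 to 0.07 in their log2 ratio.

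The ratio of Cybb was not alike at all times. Its log2 KO/WT ratio was -0.47 and -0.34 on the 0 h arrays, -0.41 and -0.46 at 1 h, 0.13 and 0.03 at 4 h, then -0.08 and -0.28 at 24 h. Only the 4 h arrays, where Furin was not lower in the channels labelled KO, were above 0. The change of the ratio from 0 to 4 h was 0.49 (95% confidence interval 0.18 to 0.79, unadjusted p = 0.00573, adjusted p = 1 by limma, and 0.393 with the block). Without the 4 h time point the mean ratio of Cybb was -0.34 (SE 0.06, adjusted p = 0.0995 over 6 arrays), that of Cyba -0.32 and that of Ncf4 -0.23, and no subunit passed. Furin then had a mean of -0.64 (adjusted p = 0.0356).

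**Figure D4:**
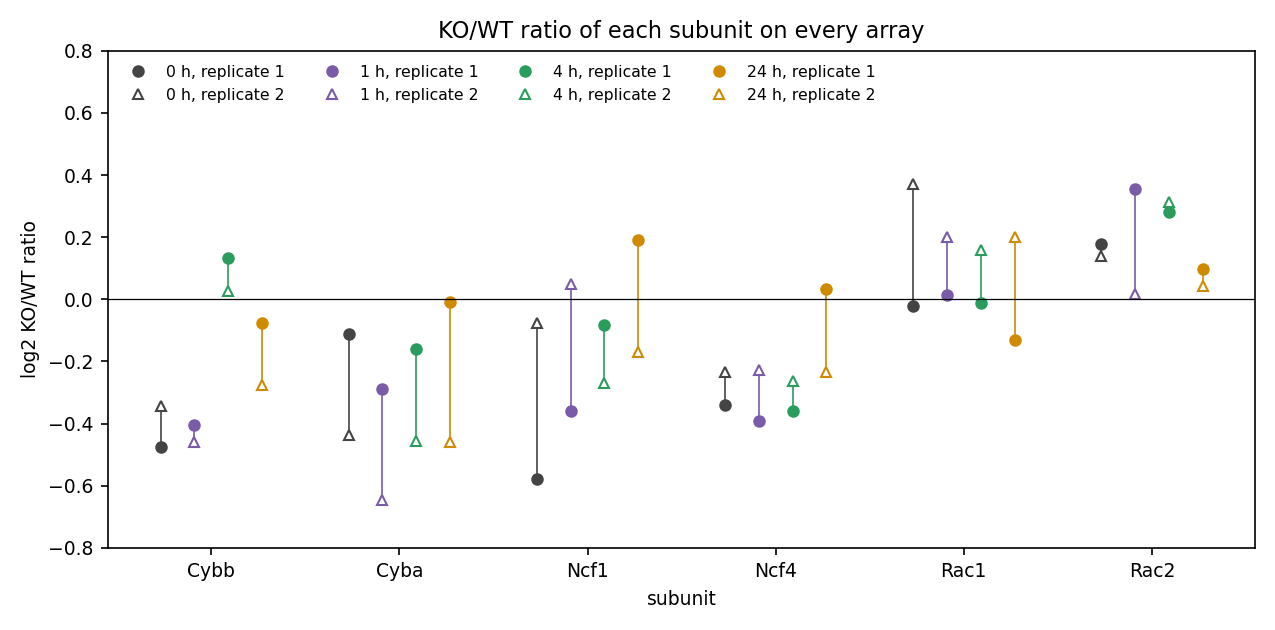
Log2 KO/WT ratio of each subunit (x axis) on each of the 8 arrays, coloured by hours of LPS, with filled circles for replicate 1 (KO in Cy5), open triangles for replicate 2 (KO in Cy3) and a line joining the replicates of a time. All 8 Cyba points lie below 0 and all 8 Rac2 points above it, and the Cybb points of 4 h lie at 0.13 and 0.03.

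None of the 6 subunits differed between the genotypes in its response to LPS at 1, 4 or 24 h by the adjusted test, nor did any other gene or transcript (0% of features, 0.0325% at 4 h and 0.211% at 24 h with the block). By an unadjusted p under 0.05, 1 subunit passed at 4 h, which was Cybb, against 2.9% of all features, and none passed at 1 or 24 h. The intervals remain wide. For the change of the ratio from 0 to 24 h they reached from -0.07 to 0.54 for Cybb, -0.44 to 0.52 for Cyba, -0.16 to 0.84 for Ncf1 and -0.14 to 0.52 for Ncf4. For the RAC GTPases they were -0.55 to 0.27 for Rac1 and -0.42 to 0.24 for Rac2.

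Markers of other cells also had ratios away from 0. The median log2 KO/WT ratio of the 6 mast cell markers was 0.39, 0.33, 0.47 and 0.66 at 0, 1, 4 and 24 h, that of the 6 B cell markers 0.17, 0.43, -0.16 and 0.13, and that of the 7 T and NK cell markers 0.18, 0.33, -0.05 and 0.15. None of the 12 mast and B cell genes passed the threshold at a single time by limma, and 1, 4, 0 and 3 of them passed an unadjusted p under 0.05 at 0, 1, 4 and 24 h, against 5.78%, 5.48%, 4.3% and 3.43% of all features. With the block, 5 of the 6 mast cell markers passed in the mean over the time points, where 5.99% of all features did. By limma 1 of the 6 macrophage markers was lower in KO in the mean over the time points, Csf1r by 0.40 (adjusted p = 0.0182), and 1 of the 4 of large peritoneal macrophages was higher, Icam2 by 0.34 (adjusted p = 0.0268), both named after their values were seen. With the block 3 of 6 and 2 of 4 passed. Summed neutrophil markers had ratios below 0 on 7 of 8 arrays, from -0.38 to -0.12, and of 0.91 on replicate 2 of 24 h, while the median ratio of the 10 genes was -0.04, -0.10, 0.00 and -0.05 at 0, 1, 4 and 24 h. The ratio of the summed mast cell markers differed between the replicates, with -0.21, 0.08, -0.22 and 0.25 for replicate 1 and 0.87, 0.45, 1.11 and 1.08 for replicate 2 at 0, 1, 4 and 24 h. That of the 3 markers of steroid-producing cells was -2.79 to -1.98 for replicate 1 and 0.90 to 1.53 for replicate 2. The median ratio of these genes was -0.38, -0.54, -0.27 and -0.27 by time, with none past the threshold and, with the block, 1 of 3 in the mean. The ratios of several subunits differed between the replicates too. Replicate 1 minus replicate 2 was 0.32, 0.36, 0.29 and 0.45 for Cyba at 0, 1, 4 and 24 h. It was -0.39, -0.19, -0.17 and -0.33 for the brighter Rac1 probe and -0.50, -0.41, 0.19 and 0.36 for Ncf1. The summed macrophage markers had KO/WT ratios between -0.61 and 0.50 over the 8 arrays, all 6 of them being above background in each channel. The part of these lists in the ratios of the subunits was not tested.

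The other genes around the oxidase moved in both directions after LPS. Of 45 further pathway genes 43 were measured, and Nox3, Nox4, Duox1 and the peroxidase Mpo were never above background. In WT cells 6 of the 43 were higher and 19 lower at 4 h (15.4% and 19.2% of all features), and 4 higher and 16 lower at 24 h (13.4% and 16.9%). In KO cells the numbers were 6 and 19 at 4 h (16.2% and 19.7% of all features), and 4 and 17 at 24 h (12.7% and 15.9%). At 1 h, 3 were higher and 3 lower in WT, where 8.47% of features passed, and 2 and 2 in KO, where 7.43% did. With the block 8 passed at 1 h in WT and 8 in KO (11.8% and 11.4% of features). Their median change at 24 h was -0.22 in WT and -0.23 in KO.

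Among the partners of assembly, Cybc1, which encodes a chaperone of the flavocytochrome, fell at 4 h by 1.38 in WT and 1.41 in KO (adjusted p = 6.73e-08 and 5.54e-08), and its 24 h values were -0.01 and 0.08. Its level was thus lowest at 4 h, a time course unlike those of Cyba and Ncf1, although the difference between the courses was not tested. Of the other NADPH oxidase genes, Noxo1, an organiser of NOX1, fell at 4 h by 1.41 in WT and 1.43 in KO.

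Of 10 kinases, 7 fell at 4 h and none rose in each genotype, where 19.2% of features in WT and 19.7% in KO were lower. Pak1, a kinase activated by RAC, fell by 2.07 in WT and 1.96 in KO at 4 h and at 24 h it fell by 2.10 in WT and 2.26 in KO. Among 13 RAC relatives and regulators, 1 rose and 5 fell at 4 h in each genotype, where 15.4% of features rose and 19.2% fell in WT and 16.2% and 19.7% in KO. Vav1, an exchange factor of RAC, fell by 1.86 in WT and 2.08 in KO at 4 h, and its 24 h values were 0.33 (adjusted p = 0.181) and 0.36 (adjusted p = 0.144). Vav3 fell by 1.33 in WT and 1.55 in KO at 24 h. Gpx1, which removes hydrogen peroxide, had the largest mean fall of its group, by 2.37 in WT and 2.42 in KO at 4 h and by 2.73 and 2.70 at 24 h. All 3 transcription factor genes (Spi1, Irf1, Irf8) rose at 4 h in both genotypes. Irf1 had the largest mean rise of them, by 1.89 in WT and 1.59 in KO. At 24 h none of them rose in either genotype. Irf1 and Irf8 fell by 0.85 and 0.81 in WT at that time (adjusted p = 0.000215 and 2.85e-05), and their KO values were 0.09 and -0.20 (adjusted p = 0.738 and 0.18), a difference between the genotypes that did not pass the adjusted test.

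**Figure D5:**
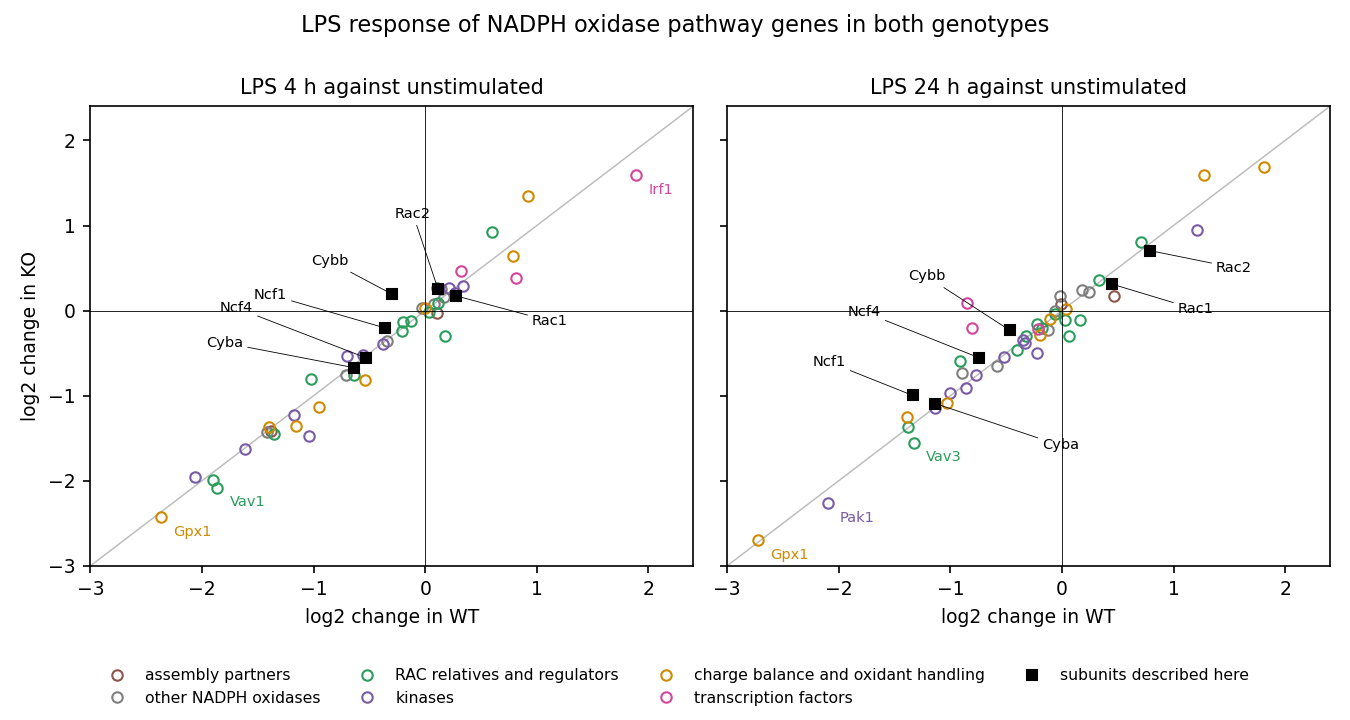
Log2 change after LPS in WT (x axis) and in KO (y axis) at 4 h and 24 h for the 6 subunits (black squares) and 43 other genes of the oxidase pathway (open circles, coloured by group), with the line of equal change. At 24 h Irf1 lies off the line, at -0.85 in WT and 0.09 in KO, and Gpx1 is lowest, at -2.73 in WT and -2.70 in KO at 24 h.

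No other pathway gene passed between KO and WT at any time or in the mean by limma, while 4, 3, 4 and 4 of the 43 passed an unadjusted p under 0.05 at 0, 1, 4 and 24 h and 8 did in the mean, where 5.78%, 5.48%, 4.3% and 3.43% of all features and, in the mean, 3940 of 36947 did. With the replicate block 1 of 43 passed at 4 h, the proton channel gene Hvcn1, and 1 at 24 h, Irf1, where 0.566% and 0.585% of all features did. In the mean 6 passed with the block, against 5.99% of all features, which were Rac3, Vav3, Prkca, Hvcn1, Sod2 and Gpx1.

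Across the 16 channels the subunits fell into 2 directions. Pearson's r was 0.92 between Cyba and Ncf4, 0.80 between Cyba and Ncf1, 0.70 between Ncf1 and Ncf4 and 0.77 between Rac1 and Rac2, and it was -0.92 between Ncf1 and Rac2. Cybb had r between 0.66 and 0.69 with the other 3 phagocyte subunits. These r describe channels that share arrays, time points and replicates, and they use the brighter Rac1 probe. The genes most like each subunit among 20834 were Pon2 (r = 0.87) and Marchf3 (0.83) for Cybb, Atox1 (0.97) and 6430548M08Rik (0.97) for Cyba, and Mcl1 (0.97) and Dennd5a (0.97) for Ncf1. For Ncf4 they were Olfr706 and Gstm4 (both 0.96), for Rac1 Gtf2h3 (0.94) and Cd47 (0.93), and for Rac2 Klra9 and Nup35 (both 0.96). The likeness of the closest gene was lower for Cybb than for the other 5 subunits.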

How the data were processed

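RNA of KO and WT macrophages was hybridised pairwise to 2-colour arrays, and the authors extracted spot intensity values with Agilent Feature Extraction 10.7.3. The deposited scanner files hold the intensity of both dyes as the median of pixels. The deposited matrix holds log2 ratios of Cy5 to Cy3, normalized by the authors, whose column medians were 0.003 to 0.009; it served as an alternative only, and its centring is not stated. Samples were grouped by their titles, although the growth protocol in the labels names 4 h of stimulation for all. Genome build of the array design and age of the mice are not given here, so no gene positions are printed beside the RefSeq promoters.

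The background was corrected by normexp (offset 50), followed by loess within and quantile normalization between arrays, all in limma 3.58.1 (R 4.3.3). Of 55681 gene probes, 27509 could be named through RefSeq identifiers. Features whose log2 intensity averaged under 6 were left out. Log2 KO/WT ratios of 8 arrays were fitted by lmFit with one coefficient per time point. LPS effects were fitted within each genotype by separate-channel analysis (statmod 1.5.0, within-spot correlation 0.127). Apart from those of the t-test, all p-values come from eBayes. Adjustment was by Benjamini-Hochberg over all features, with a threshold of 0.05. The spread behind the eBayes values is pooled per gene over the 2 replicates of all 4 time points and drawn towards that of all genes. It is not the spread of a single time point. The procedure was tested on simulated data with independent noise in each channel. Such data lack the within-spot correlation and the replicate or dye differences of the arrays. Intervals are 95% confidence intervals.

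The replicate numbers recur at each time, and the gap in KO/WT ratio from replicate 2 to replicate 1 correlated across genes between time points, with r from 0.475 to 0.679 over 6 pairs. The number is also the dye orientation at every time, so pairing of the samples and a dye effect cannot be told apart by this correlation. The main fits hold no replicate block, and values with the block are given where they change a call of a subunit. Alternatives were other background corrections, normalizations, filters and probe choices, the matrix, leaving out each array, and the methods' t-test (a gene-by-gene two-sample test). The dimmer probes and the mean without 4 h were added after the data were seen.

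The members, the pathway and marker lists and the promoter letters were chosen with earlier results of these data known. Named are all 6 subunits, Furin, Lyz2, other pathway genes past the threshold between genotypes, per pathway group the gene with the largest mean LPS change at 4 h and at 24 h among those past it in both genotypes, and the 2 genes most correlated with each subunit. Cybc1, Hvcn1 and the others named with the block, and genes listed as not above background, are named as well, and Spi1, Irf8 and the marker genes were named after their values were seen. Some genes and promoter letters of the lists are not reported here and were left out of the counts.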

Additional observations from a re-analysis of the deposited data

Results flagged for a closer look

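Cybb stood out because both arrays of a time point lay on one side of 0 in the log2 KO/WT ratio and both arrays of another on the opposite side. The ratio at 4 h exceeded that at 0 h by 0.49 and that at 1 h by 0.51, and the ratio at 24 h differed from that at 4 h by -0.26. The difference between 0 and 4 h was tested and had an adjusted p of 1 by limma (0.393 with the replicate block). The other differences were not tested.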

How the results depend on the processing

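Of the comparisons between KO and WT, the number of subunits past the threshold stayed at 0 under all alternatives except the replicate block, which gave 1 at 1 h and 4 in the mean over the time points. For LPS the block gave 2 in KO at 1 h and 4 in KO from 1 to 4 h. For the filter, background, normalization and probe settings below, and for arrays left out, the share of all features that passed is not given. Their counts are therefore not set against a background. With a filter at a mean log2 intensity of 8, which tests fewer features, 4 subunits passed in WT at 4 h. From 1 to 4 h 3 passed in WT and 2 in KO, and 5 passed in KO at 24 h. Without background correction 3 passed in WT and 2 in KO from 1 to 4 h, and with the mean over probes or the dimmer probes 3 did in each. Aquantile normalization gave 2 in KO from 1 to 4 h, and from 4 to 24 h 2 in WT and 3 in KO. The scanner software's processed signals left 1 in WT from 1 to 4 h. Loess alone left 4 in WT at 24 h, 1 in WT from 1 to 4 h, 0 in KO at 1 h, 1 in KO at 4 h and 1 in KO from 4 to 24 h. It also shifted the median of all features from 1 to 4 h by -0.16 in both genotypes. The methods' t-test left 0 after adjustment in all comparisons in which it was run, where 0 to 1847 of all features passed. Before adjustment it gave 1 in WT and 1 in KO at 4 h, and 4 in each genotype at 24 h, where 11474 and 10485 features in all passed at 4 h and 10290 and 9995 at 24 h. Its test uses 2 replicates a group and shares no spread between genes. Leaving out each array in turn gave 4 to 6 subunits in WT at 24 h, 1 to 3 from 1 to 4 h and 2 to 3 from 4 to 24 h. In KO it gave 0 to 1 at 1 h, 1 to 2 from 1 to 4 h and 1 to 4 from 4 to 24 h, and no other count moved.

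With the dimmer probe, Rac1 turned to -0.82 at 4 h, -0.73 at 24 h and -0.62 from 1 to 4 h in WT, and to -0.81, -0.86 and -0.52 in KO. All of these passed the threshold, so Rac1 then also counted at 4 h in both genotypes and at 24 h in KO. With the mean over both probes it turned to -0.14 in WT at 24 h, where the call was lost (adjusted p = 0.392 by limma). In KO at 4 h it turned to -0.32 and passed (adjusted p = 0.0268). The cause was not tested for any of these. Signs also changed in 28 values of single subunits under other settings and in 37 with 1 array left out, none of them past the threshold before or after. The replicate block changed no call of a subunit other than those given beside the results.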
